A study of Arabidopsis thaliana with 12 samples.

Results

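Anthocyanins are the red and purple pigments of plants, and flavonols are colourless relatives that absorb ultraviolet light; both are built from phenylalanine through a shared chain of flavonoid enzymes. DFR encodes dihydroflavonol 4-reductase, which turns dihydroflavonols into the precursors of anthocyanidins and so leads the chain towards pigments and tannins. UGT78D2 encodes a glucosyltransferase that puts glucose on flavonols and anthocyanidins, and UF3GT, also called UGT79B1, a glycosyltransferase that adds xylose to the sugar of anthocyanins. In leaves and stems these genes are known to respond to light, sugar, cold and nutrient supply, largely through a complex of MYB, bHLH and WD40 proteins.

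The 3 genes DFR (AT5G42800), UF3GT (AT5G54060) and UGT78D2 (AT5G17050) were taken as the probe sets that name each of them alone in the platform annotation. They are 3 of 13513 probe sets that name 1 gene, and of 22746 probe sets in all apart from the array's own controls. Their levels were measured on 12 ATH1 microarrays (Affymetrix) in Arabidopsis thaliana, the cress relative that serves as the model plant of the field. The series concerns long, weak irradiation of the plants by caesium-137, a radionuclide released in nuclear accidents. There were 3 arrays for each of 4 groups: roots of plants labelled cs (Cs, read here from the series title as the caesium-exposed plants), roots of control plants, shoots of Cs plants and shoots of control plants. All arrays carry developmental stage 1.0. The labels state no strain, dose, length of exposure or age in days. Each array has a replicate number from 1 to 3 in its title, and the labels do not say what a number marks. They also do not say whether replicates were grown separately. The p-values therefore rest on the spread between these arrays alone, and that spread may be technical.

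Signals are the deposited MAS5 intensities, a summary of a probe set's brightness on a linear scale, and differences are on the log2(signal + 11) scale. Array medians lay between 41.1 and 49.6. With 3 arrays a group, precision is limited by the number of arrays. Apart from marker sums and percentiles, a gene's signal is compared only with itself on other arrays. The brightness of different probe sets is not on a common scale, so a sum follows its brightest genes. Marker genes followed the tissue labels. The summed signal of 6 photosynthesis genes (RCA, PRK, PSAE-1, LHCB4.1, PSBW and PSBY) was 437 to 2386 in Cs roots and 353 to 1089 in control roots, against 23053 to 25352 in Cs shoots and 25180 to 29046 in control shoots. The summed signal of the root genes PYK10 and EXPA7 was 3620 to 4076 in Cs roots and 3000 to 3847 in control roots, against 344 to 801 in Cs shoots and 386 to 570 in control shoots. None of these markers was at 0 on any array.

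All 3 genes were measured well within the range of the arrays, between the 31.8th and the 89.4th percentile of all probe sets. DFR had signals of 49.7, 32.01 and 26.3 in Cs roots (replicates 1, 2 and 3) and 69.8, 20.9 and 65.2 in control roots. In shoots DFR had 94.5, 24.6 and 32.03 in Cs plants and 163, 31.95 and 94.7 in control plants. Replicate 1 was thus the highest array of every group for DFR, and the Cs and control arrays overlapped in both tissues. With number 3 at 94.7 in control shoots, the 2 shoot arrays numbered 1 did not both exceed the other 4.

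UF3GT was high on most of the same arrays. It had 34.1, 31.4 and 35.4 in Cs roots and 68.8, 26.8 and 49.4 in control roots. In shoots it had 114, 23.3 and 38.5 in Cs plants and 232, 31.6 and 64.004 in control plants. Its Cs root arrays lay close together, with an SD of 2.06 around a mean of 33.6, against an SD of 21.1 around 48.3 in control roots (n = 3 each).

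UGT78D2 had 64.6, 57.1 and 36.5 in Cs roots and 115, 37.2 and 70.9 in control roots. In shoots it had 248, 67.3 and 114 in Cs plants and 263, 70.7 and 80.3 in control plants. Both replicate 1 shoots lay more than 2 times above every other shoot array for this gene, while Cs and control arrays overlapped. UF3GT too had both shoots numbered 1 above the other 4, a pattern held by 19.2% of all 15508 tested probe sets in shoots and by 10.9% in roots, where none of the 3 genes had it. For UGT78D2 the ratio of replicate 1 to the next highest array of its group was 2.17 in Cs shoots and 3.27 in control shoots.

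**Figure D1:**
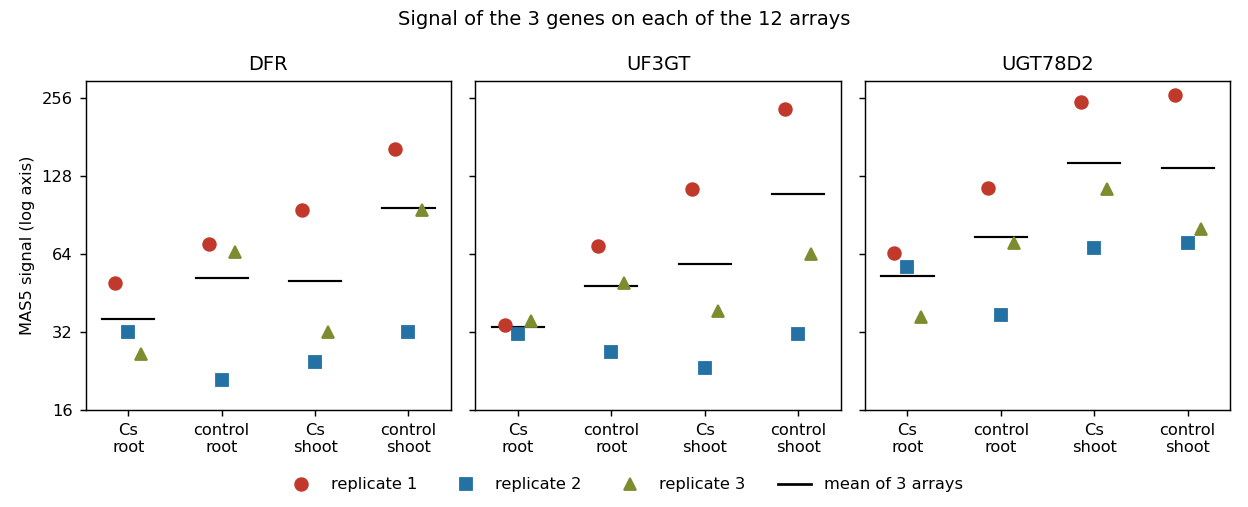
MAS5 signal (log axis) of DFR, UF3GT and UGT78D2 on each of the 12 arrays, by group, with replicate numbers 1, 2 and 3 as circles, squares and triangles and the mean of 3 arrays as a line. In shoots the circle is the highest and the square the lowest of its group for all 3 genes, for example 263 against 70.7 for UGT78D2 in control shoots.

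The first comparison asked whether the 3 genes differed between Cs and control plants. In the limma fit across all 15508 tested probe sets (a linear model with a moderated spread, Benjamini-Hochberg adjustment, threshold 0.05) none of the 3 passed in root or shoot. The background was 0% in both tissues, with 589 probe sets at an unadjusted p under 0.05 in roots and 324 in shoots, so a count of 0 among the 3 genes is no result about them. Since the 4 groups were fitted together, a gene's standard error (SE) is the same in root and shoot.

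In shoots the mean signal of DFR was 50.4 ± 38.4 in Cs plants and 96.4 ± 65.3 in control plants (SD, n = 3 each). The log2 difference, Cs minus control, was -0.76 ± 0.53 (SE), with a 95% confidence interval from -1.91 to 0.38 (limma, adjusted p = 1.00). UF3GT had 58.7 ± 48.8 in Cs shoots and 109 ± 108 in control shoots, a log2 difference of -0.62 ± 0.57 and an interval from -1.86 to 0.61. Both values are far out in size. Of the 15508 probe sets, 12 had a lower shoot value than DFR and 41 a lower one than UF3GT. In this fit they are poorly determined, while the half-width of the interval over all probe sets had a median of 0.43. The fit has no term for replicate number, so its SEs and intervals include the spread between numbers. With the number as a block within each tissue, 0 probe sets passed in shoots too, and the median half-width was 0.34. In that fit the SE of number 1 against numbers 2 and 3 in shoots was 0.28 for DFR and 0.21 for UF3GT. Their Cs intervals with the block are therefore narrower than those above, and they are not given here.

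UGT78D2 stood at 143 ± 93.9 in Cs shoots and 138 ± 108 in control shoots, with a log2 difference of 0.11 ± 0.51 and an interval from -1.001 to 1.21. A doubling lies within that interval, which comes from the fit without a term for replicate number. With the number as a block, the SE of number 1 against numbers 2 and 3 in shoots was 0.25 for this gene. The Cs interval of that fit is narrower, is not given here and need not hold a doubling. The sign of 2 of the 3 values depended on single arrays. UF3GT came to 0.08 without control shoot replicate 1, and UGT78D2 to -0.36 without Cs shoot replicate 1, -0.21 without control shoot replicate 2 and -0.13 without control shoot replicate 3. DFR stayed negative whichever array was left out, between -1.31 and -0.31.

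In roots the 3 genes had similar differences: DFR -0.34 ± 0.53, UF3GT -0.35 ± 0.57 and UGT78D2 -0.34 ± 0.51. Their mean signals were 36.0, 33.6 and 52.7 in Cs roots and 52.0, 48.3 and 74.4 in control roots, and SDs ran from 2.06 to 14.5 in Cs roots and from 21.1 to 39.2 in control roots (n = 3 each). The intervals ran from -1.48 to 0.81 for DFR, from -1.58 to 0.89 for UF3GT and from -1.45 to 0.76 for UGT78D2. The difference between the tissues in the response, root minus shoot, was 0.43 ± 0.74 for DFR, 0.28 ± 0.81 for UF3GT and -0.45 ± 0.72 for UGT78D2 (limma, adjusted p = 1.00 for each), where 0% of probe sets passed and 341 had an unadjusted p under 0.05. Averaged over both tissues the Cs difference was -0.55 ± 0.37 for DFR, -0.48 ± 0.40 for UF3GT and -0.12 ± 0.36 for UGT78D2, and again 0% of probe sets passed, with 524 at an unadjusted p under 0.05.

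Set against the control array of the same number, Cs shoots were lower in 3 of 3 numbers for DFR and for UF3GT and in 2 of 3 for UGT78D2. For DFR the within-number log2 differences were -0.72, -0.27 and -1.30 for numbers 1, 2 and 3 (SD 0.51). They were -0.96, -0.31 and -0.60 for UF3GT (SD 0.32) and -0.08, -0.06 and 0.46 for UGT78D2 (SD 0.30). A pattern of 3 of 3 lower was held by 11.3% of all tested probe sets in shoots and 14.2% in roots. In roots number 2 went the other way for all 3 genes, at 0.43 for DFR, 0.17 for UF3GT and 0.50 for UGT78D2, while numbers 1 and 3 lay between -0.38 and -1.03. Number 2 is also where root arrays differed most in photosynthesis transcripts, whose summed signal was 2386 in the Cs root and 353 in the control root, and where COR15A, a cold-induced gene high in shoots, had 167 in the Cs root and 24.8 in the control root. Their part in the root values was not tested. For none of the 3 genes did all Cs arrays lie on 1 side of all control arrays, in shoots (6.35% of tested probe sets) or in roots (8.89%).

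**Figure D2:**
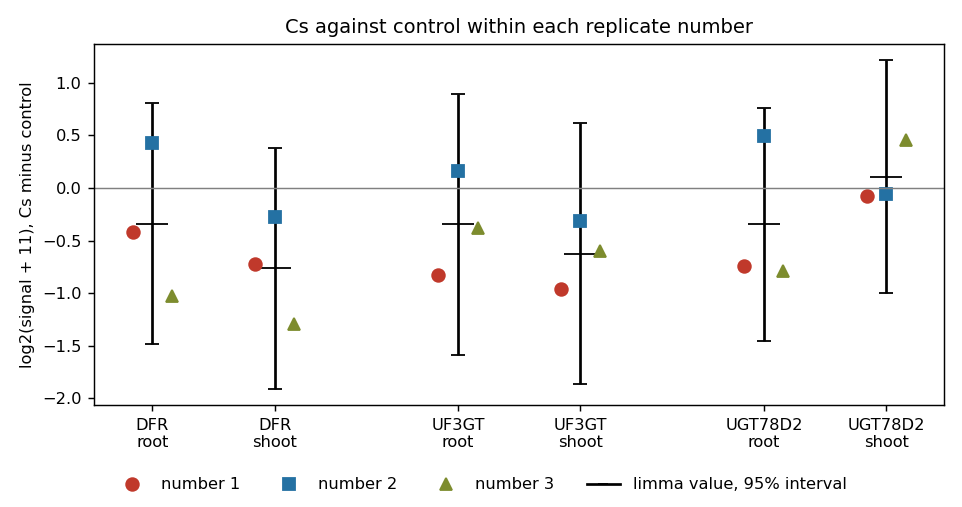
Log2(signal + 11), Cs minus control, for each gene and tissue within replicate numbers 1, 2 and 3 (circle, square, triangle). The dash and bar give the limma value and its 95% confidence interval over all arrays, from the fit without replicate number. DFR and UF3GT lie below 0 for all 3 numbers in shoots, and all 3 genes lie above 0 for number 2 in roots.

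The second comparison asked how roots differed from shoots. UGT78D2 was lower in Cs roots, at 36.5 to 64.6, than in Cs shoots, at 67.3 to 248, with no overlap of the 3 and 3 arrays, a pattern held by 24.3% of tested probe sets. Its log2 difference, root minus shoot, was -1.13 ± 0.51 in Cs plants and -0.68 ± 0.51 in control plants, and neither passed (limma, adjusted p = 0.0754 and 0.266). With the replicate number as a block over both tissues, the value in Cs plants passed (adjusted p = 0.00422) and that in control plants did not (0.0509). With the number as a block within each tissue both passed (0.00135 and 0.0230). In Cs plants it also passed without control shoot replicate 1 (0.0326) or Cs shoot replicate 2 (0.0307).

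DFR and UF3GT had smaller root minus shoot differences in Cs plants, at -0.24 ± 0.53 and -0.42 ± 0.57, and -0.67 ± 0.53 and -0.70 ± 0.57 in control plants. None of these 4 values passed (limma, adjusted p between 0.289 and 0.711), against a background of 58% of probe sets called in Cs plants and 60.3% in control plants. With the replicate number as a block within each tissue both control-plant values passed (adjusted p = 0.0418 for DFR and 0.00975 for UF3GT), and with the block over both tissues neither did (0.0650 and 0.101). In control plants root and shoot arrays overlapped for all 3 genes, whereas 24.1% of probe sets had every root array below every shoot array. The direction in Cs plants rested on a single array: without Cs shoot replicate 1 the root minus shoot value was 0.23 for DFR and 0.11 for UF3GT. In control plants UF3GT came to 0.00 without control shoot replicate 1.

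The third comparison was by replicate number. In shoots all 3 genes differed between numbers beyond the spread left within them, with number 1 the highest. The size, number 1 minus the mean of numbers 2 and 3, was 1.86 ± 0.21 for UF3GT (limma moderated F over the 3 numbers, adjusted p = 0.000699), 1.53 ± 0.25 for UGT78D2 (adjusted p = 0.00601) and 1.40 ± 0.28 for DFR (adjusted p = 0.0123). In shoots 12.4% of all tested probe sets passed this test, and 4.69% of all passed with number 1 higher. The 3 genes sat at the upper edge, since 29, 56 and 73 of the 15508 probe sets had a larger value than UF3GT, UGT78D2 and DFR. That shoot arrays numbered 1 stand apart, and that these genes are high there, was known from earlier results of these data when the test was chosen.

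The call for UF3GT held whichever array was left out, the highest adjusted p being 0.0250. DFR lost its call without control shoot replicate 1 (adjusted p = 0.106), Cs shoot replicate 1 (0.105) or control shoot replicate 2 (0.0750). UGT78D2 lost it without control shoot replicate 1 (0.111) or Cs shoot replicate 1 (0.0594). The number of all probe sets called in shoots was 1926, and it was 645 without control shoot replicate 1, 646 without Cs shoot replicate 1 and 1185 without control shoot replicate 3.

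**Figure D3:**
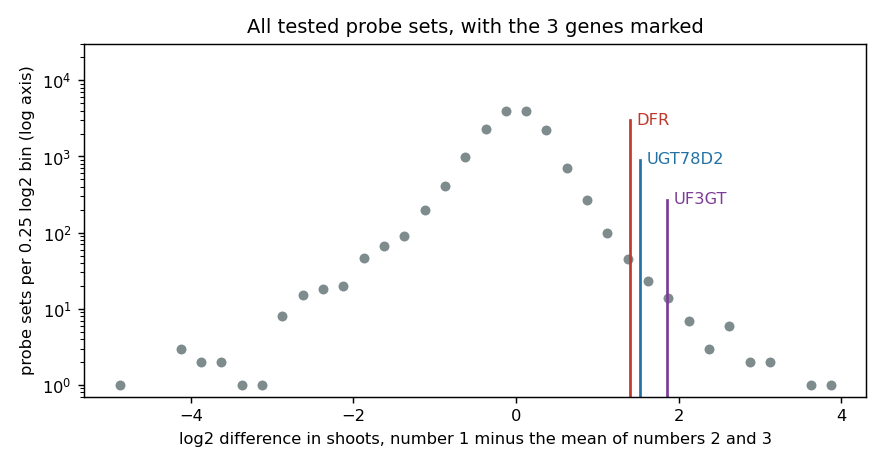
Number of tested probe sets (log axis) by log2 difference in shoots, number 1 minus the mean of numbers 2 and 3, with lines at DFR, UGT78D2 and UF3GT (heights of the lines carry no value). The 3 genes lie at 1.40, 1.53 and 1.86, in the thin upper end of the distribution.

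The 3 genes also shared the order of the other arrays. In Cs shoots and in control shoots each gene had its highest signal in number 1, its middle one in number 3 and its lowest in number 2, an order held in both groups by 5.01% of tested probe sets. Control roots had that order too for all 3 genes, which 1.14% of probe sets held in the 3 groups at once. Cs roots did not: DFR and UGT78D2 were lowest there in number 3, and UF3GT was highest in number 3 by a margin of 1.36 signal units over number 1. The order and the groups counted follow the values of these 3 genes, so both shares describe the pattern and are no independent result.

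In roots the differences between numbers were smaller. Number 1 minus the mean of numbers 2 and 3 was 0.66 ± 0.28 for DFR, 0.38 ± 0.21 for UF3GT and 0.71 ± 0.25 for UGT78D2, and none passed the F over the 3 numbers (adjusted p = 0.288, 0.389 and 0.276) against 3.04% of all probe sets (1.5% with number 1 higher). UGT78D2 passed without Cs root replicate 2 (adjusted p = 0.0107). The difference between the tissues in this size, root minus shoot, was -1.47 ± 0.30 for UF3GT and passed (limma, adjusted p = 0.0199), against 5.2% of probe sets called. It did not pass for DFR (-0.74 ± 0.39, adjusted p = 0.309) or UGT78D2 (-0.82 ± 0.35, 0.205). The call for UF3GT was narrow: an F over both contrasts between numbers, by which 3.02% of probe sets were called, gave an adjusted p of 0.0550, and without control shoot replicate 1 or Cs root replicate 1 the test of the size gave 0.160 and 0.129. It was 0.0539 without control shoot replicate 2 and 0.0556 without control shoot replicate 3, and UGT78D2 passed without control root replicate 2 (-1.13, 0.0157).

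Of the tissue markers, PYK10 alone passed the test between numbers in shoots, with number 1 lower (-0.77 ± 0.14, limma, adjusted p of the F = 0.00687). It had 302 (Cs) and 347 (control) in shoots numbered 1 and 472 to 779 in the other 4. EXPA7, the other root gene, went the other way, at 42.2 (Cs) and 39.7 (control) in shoots numbered 1 against 9.39 to 27.3 in the other 4, and did not pass (0.74 ± 0.26, adjusted p = 0.110). The summed signal of both, most of it from PYK10, was 344 (Cs) and 386 (control) in shoots numbered 1 and 498 to 801 in the other 4. The 6 photosynthesis genes summed to 25352 (Cs) and 29046 (control) in shoots numbered 1 and to 23053 to 25540 in the other 4, and none of them passed in shoots (adjusted p of the F between 0.617 and 0.999) or in roots (0.285 to 0.683). In roots they summed to 723 (Cs) and 1089 (control) in number 1, and to 2386, 437, 353 and 484 in Cs replicates 2 and 3 and control replicates 2 and 3. Their part in the levels of the 3 genes was not tested. In bulk samples fewer cells of a type and less RNA per cell cannot be told apart.

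The rest of the pathway was followed through lists of 66 genes of phenylpropanoid and flavonoid synthesis, transport and regulation. Of these, 10 have a probe set that names them alone, including the 3 described, and 6 were bright enough to be tested. None of the 9 genes of phenylpropanoid entry, the 5 of flavonoid transport and oxidation or the 26 regulators has such a probe set, so the genes that control the pathway are not analysed here. Beside DFR, UF3GT and UGT78D2 the tested genes were CHIL, a chalcone isomerase-like protein that raises flavonoid output, UGT78D1, a rhamnosyltransferase of flavonols, and AT1G06000, a locus of the decoration list to which the annotation gives no name.

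CHIL had 42.3, 9.86 and 4.91 in Cs roots and 61.2, 5.05 and 6.47 in control roots, and 211, 51.3 and 48.4 in Cs shoots and 244, 48.2 and 75.4 in control shoots. AT1G06000 had 117, 70.9 and 45.4 in Cs roots and 176, 50.3 and 48.6 in control roots, and 195, 36.6 and 63.0 in Cs shoots and 264, 28.2 and 61.3 in control shoots. Replicate 1 stood above both other arrays in all 4 groups for both genes. UGT78D1 had 182, 74.4 and 115 in Cs shoots and 209, 108 and 95.4 in control shoots, and at most 22.01 on any root array.

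In shoots 5 of the 6 tested genes passed the test between numbers, all with number 1 higher, against 12.4% of all probe sets called and 4.69% called higher. The 5 include DFR, UF3GT and UGT78D2, known to be high there when the test was chosen, so the count is no independent result. CHIL had 1.85 ± 0.20 (limma, adjusted p of the F = 0.000699) and AT1G06000 2.08 ± 0.20 (adjusted p = 0.000246), while UGT78D1 had 0.93 ± 0.28 and did not pass (0.109). In roots, where 3.04% of all probe sets were called and 1.5% called higher, 2 of the 6 passed, CHIL at 1.83 ± 0.20 (adjusted p = 0.00360) and AT1G06000 at 1.27 ± 0.20 (0.0188). In roots both numbers 2 and 3 of CHIL lie near the floor, at 4.91 to 9.86, where the added 11 sets the log2 value: the signal ratio of number 1 to the mean of numbers 2 and 3 was 5.73 (Cs) and 10.6 (control) in roots and 4.24 (Cs) and 3.95 (control) in shoots. Over all tested probe sets the median of this value was -0.02 in each tissue.

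**Figure D4:**
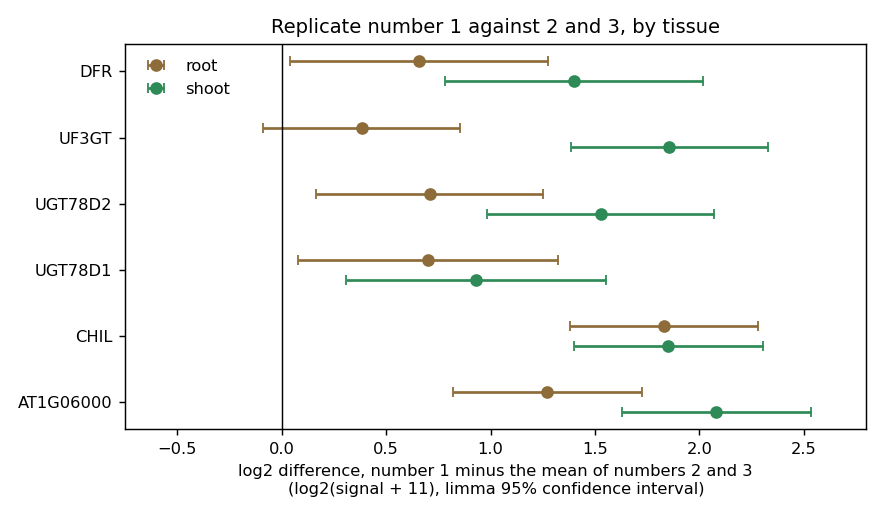
Log2 difference, number 1 minus the mean of numbers 2 and 3, with its 95% confidence interval (limma), for the 6 tested genes of the pathway in root (upper of each pair) and shoot (lower). All 6 shoot values lie above 0, from 0.93 for UGT78D1 to 2.08 for AT1G06000, and UF3GT has the widest gap between tissues, 0.38 in root and 1.86 in shoot.

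Between Cs and control plants none of the 6 passed in root or shoot. In shoots the values of the other tested genes were -0.22 ± 0.72 for CHIL, -0.14 ± 0.40 for UGT78D1 and -0.03 ± 0.70 for AT1G06000, and in roots -0.06 ± 0.72, -0.32 ± 0.40 and -0.07 ± 0.70. DFR and UF3GT thus had the lowest shoot values of the 6, and the intervals of all 6 overlap. Between organs CHIL and UGT78D1 were lower in root, at -1.85 ± 0.72 and -3.18 ± 0.40 in Cs plants (limma, adjusted p = 0.0433 and 2.03e-05) and at -2.002 ± 0.72 and -3.01 ± 0.40 in control plants (adjusted p = 0.0296 and 3.28e-05). In all, 21.9% of probe sets were called lower in root in Cs plants and 22.3% in control plants. Both reached the filter in shoot and not in root, so they were tested only through the tissue where they are high. Their calls between organs are therefore not independent of the filter.

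COR15A was the only gene of a list of 9 high light, cold and phosphate responsive genes with a probe set of its own. It had 1005, 1220 and 1134 in Cs shoots and 1179, 1416 and 2152 in control shoots, where number 1 was the lowest array of each group. Its value by number in shoots was -0.39 ± 0.53 (limma, adjusted p = 0.839).

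**Figure D5:**
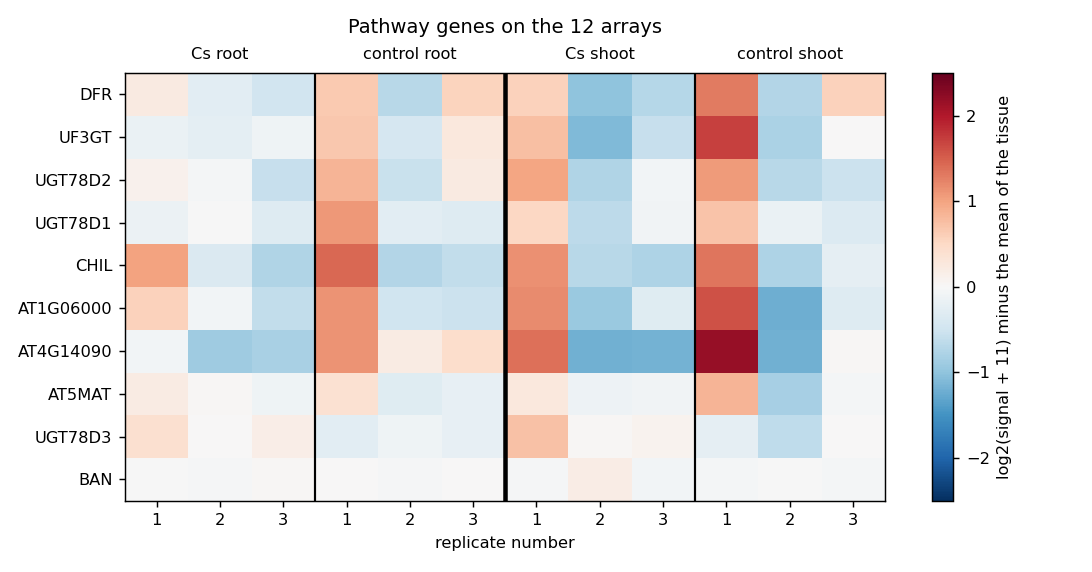
Log2(signal + 11) minus the mean of the tissue for the 10 pathway genes with a probe set of their own, on the 12 arrays by group and replicate number (red above, blue below the tissue mean). The column of number 1 in both shoot groups is red for the first 8 genes, and BAN, near the floor of the arrays, stays close to 0.

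The genes whose array pattern was most like the 3 were ranked by Pearson's correlation over the 12 arrays, on log2 signals minus the mean of the tissue, among 8457 other tested probe sets that name 1 gene. These values describe likeness only, since the arrays share their replicate numbers and groups. For DFR the nearest was EXLB1, an expansin-like gene (0.93), followed by UF3GT (0.92), AT3G22550 (0.90), AT5G64550 (0.90) and AT4G34265 (0.89). For UF3GT the order was AT3G22550 (0.93), AT5G47550 (0.92), AT5G01790 (0.92), DFR (0.92) and EXPB3, a beta-expansin gene (0.92). DFR and UF3GT were thus among each other's 5 nearest genes.

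UGT78D2 was nearest to AT2G26690, listed by RefSeq as NPF6.2 of the nitrate and peptide transporter family (0.96), AT3G17130 (0.95), AFR, an F-box protein of far-red light signalling (0.93), AT1G48100 (0.93) and AT5G20885 (0.93). AT1G06000 came next, at rank 6 (0.93). UF3GT was at rank 32 (0.87) and DFR at rank 107 (0.80), so over the 12 arrays UGT78D2 stood further from DFR and UF3GT than they from each other. In the 6 root arrays alone the order turned, with 0.92 for UGT78D2 and DFR, 0.87 for UGT78D2 and UF3GT and 0.86 for DFR and UF3GT. AFR shares with UGT78D2 the high level in number 1, but in control shoots its lowest array is number 3: it had 359, 51.5 and 82.8 in Cs shoots and 356, 66.1 and 40.8 in control shoots for replicates 1, 2 and 3.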

How the data were processed

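Total RNA of 12 samples was hybridised to 1 array each. The deposited values are intensities on a linear scale; the submitters' processing notes name MAS5, with no version. On every array the 2% trimmed mean is 100. The sources used here give neither the background step nor presence calls. No pair of arrays was identical (0 pairs). Groups, tissues and numbers come from titles and characteristics. Of 22746 probe sets, 13513 name 1 gene, 503 several and 8730 none here. Gene names and neighbours come from RefSeq's TAIR10.1 table, which holds 13436 of those 13513 loci. Coordinates are left out because no label names the array's build. UGT78D2 and UGT78D3 are separated by 1 gene there, and cross-hybridisation was not tested.

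From the deposited intensities log2(signal + 11) was computed here; 11 is 0.25 times a typical array median. Probe sets were tested if their mean reached the 40th percentile in at least 1 tissue (a signal of 31.2 in root, 28.0 in shoot), which all 3 genes did in both. A limma model (version 3.58.1, R 4.3.3) with 4 group means and an intensity trend covered the 12 arrays; for differences between numbers, replicate number within each tissue was added (4 residual degrees of freedom). The difference between tissues in the size (number 1 minus the mean of 2 and 3) was tested as well, a test added after the values by number had been seen. The scripts were tested on simulated data.

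Same-numbered Cs and control arrays deviated together from their group means in shoots (correlations 0.71, 0.41 and 0.45) but not for number 2 in roots (0.47, -0.02 and 0.40), and same-numbered roots and shoots did weakly (0.10 to 0.28). By a rule of over 0.1 for every same-numbered pair, the numbers pair shoots and pair roots with shoots, on the data and not on the labels. Some unlike-numbered shoots exceeded 0.1 as well: 0.37 for Cs 2 with control 3 and 0.20 for Cs 3 with control 2. Shoots numbered 1 with those of another number lay between -0.58 and -0.43. Deviations from a group mean cancel out within the group. These negative values therefore follow in part from the 0.71 of number 1 and are no separate support. The rule thus sets number 1 apart in shoots but not number 2 from number 3. Roots were not compared with shoots of another number.

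Named were the 3 genes, every gene of the pathway and marker lists with its own probe set, and the 5 nearest genes of each. Members, lists and tests were chosen with earlier results of these data known. Alternatives were the pseudocount, filter, normalization, trend, array weights, blocks, 1 tissue alone and left-out arrays.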

Additional observations from a re-analysis of the deposited data

Results flagged for a closer look

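The difference between replicate numbers in UF3GT itself differed between tissues: number 1 minus the mean of numbers 2 and 3 was 0.38 ± 0.21 in roots and 1.86 ± 0.21 in shoots, and the root minus shoot difference of -1.47 ± 0.30 passed (limma, adjusted p = 0.0199; 0.00526 to 0.160 over the alternatives tried). UF3GT was highest in number 1 in 3 of the 4 groups, the exception being Cs roots, where it had 34.1, 31.4 and 35.4 for numbers 1, 2 and 3. The test was added after the values by number had been seen.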

How the results depend on the processing

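Across 274 alternative values of the 3 genes for Cs against control, none passed the threshold and 16 changed sign, 13 of them when 1 array was left out. With array weights the difference between tissues in the response of UF3GT was -0.035 and the averaged Cs value of UGT78D2 0.059, and without the 4 arrays numbered 1 that averaged value was 0.028. With 1 array left out, the shoot values ranged from -0.36 to 0.66 for UGT78D2 and from -1.18 to 0.080 for UF3GT, the tissue differences from -0.030 to 0.98 for DFR, -1.004 to 0.014 for UGT78D2 and -0.43 to 0.83 for UF3GT, and the averaged value of UGT78D2 from -0.35 to 0.16. For root against shoot in Cs plants, DFR came to 0.052 with array weights, and DFR and UF3GT to 0.034 and 0.11 without the arrays numbered 1; their ranges with 1 array left out were -0.55 to 0.23 and -0.82 to 0.11.

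UGT78D2 passed in Cs plants at -1.13 with the replicate block over both tissues or within each tissue and at -0.80 without the arrays numbered 1, and ranged from -1.53 to -0.66 with 1 array left out. In control plants DFR, UGT78D2 and UF3GT passed only with the replicate block within each tissue, at -0.67, -0.68 and -0.70 (limma, adjusted p = 0.0418, 0.0230 and 0.00975), and UF3GT ranged from -1.25 to 0.0042. The block changed no other call of the 3 genes. By number, shoot values ranged from 1.198 to 1.60 for DFR and 1.39 to 1.67 for UGT78D2, and root values of UGT78D2 from 0.39 to 1.02, with 1 array left out.

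Probe sets called between Cs and control roots numbered 1 with a pseudocount of 44, 6 with the replicate block within each tissue, 6 without the arrays numbered 1 and 0 to 10 with 1 array left out; none of the 3 genes was among them. Calls between numbers were 709 with a pseudocount of 44, 248 without a filter and 96 to 1047 with 1 array left out in roots (471 in the reported fit), and 3041 with shoot arrays alone and 645 to 2385 with 1 array left out in shoots. DFR and UF3GT fell below a filter at the 60th percentile and have no value there. The tissue difference by number of UF3GT stayed at -1.47 but no longer passed without a filter (limma, adjusted p = 0.0579) or by the F over both contrasts (0.0550); with 1 array left out it ranged from -1.83 to -1.11, and that of UGT78D2 from -1.13 to -0.50. The alternatives for this tissue difference by number were chosen after seeing the data. Those for the other results were planned, with earlier results of these data known. The causes were not tested. Dim signals limit fold changes, which the pseudocount understates.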

Other observations

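Among the 10 pathway genes with a probe set of their own, 4 were too dim to be tested. AT4G14090, a locus of the decoration list that the annotation does not name, had 15.5, 4.06 and 4.82 in Cs roots and 49.8, 20.9 and 26.7 in control roots. All Cs arrays lay below all control arrays; among the brighter, tested probe sets 8.89% had all Cs roots on 1 side. Its log2 difference in roots was -1.18 with an SD of 0.09 over the 3 numbers. In a fit without the filter the SE, shared by both tissues, was 0.81, and the value did not pass (limma, adjusted p = 1.00). In shoots it had 78.0, 3.83 and 4.14 in Cs plants and 144, 3.77 and 23.8 in control plants, so number 1 was far above the others, 3 of which lay near the floor.

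UGT78D3, an arabinosyltransferase of flavonols, had 9.05, 4.39 and 6.17 in Cs roots and 1.67, 3.19 and 2.31 in control roots, and 23.5, 10.4 and 11.2 in Cs shoots and 6.81, 2.37 and 10.0 in control shoots. Cs arrays lay above control arrays in both tissues, at signals near the floor; among tested probe sets 8.89% had all Cs arrays on 1 side in roots and 6.35% in shoots. Averaged over both tissues the difference was 0.48 ± 0.15 without the filter and did not pass (limma, adjusted p = 1.00). AT5MAT, which adds malonate to anthocyanins, had 27.1, 18.1 and 18.7 in Cs shoots and 46.6, 6.79 and 19.5 in control shoots. BAN, the anthocyanidin reductase of seed coat tannin synthesis, lay between 1.23 and 3.55 on all 12 arrays.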
